A study of Mus musculus with 8 samples.

Results

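The genes described here are the parts of the cell's oxygen-sensing machinery: the prolyl hydroxylases Egln1, Egln2 and Egln3, the asparaginyl hydroxylase Hif1an, the ubiquitin ligase subunit Vhl, the hypoxia-inducible factor (HIF) subunits Hif1a, Epas1 and Arnt, and the collagen prolyl hydroxylase subunits P4ha1 and P4ha2. They were chosen by name, with earlier results of these data known. All 10 of 10 symbols matched 1 Ensembl identifier each among the 47729 in the count files, and all 10 were among the 16515 genes with enough counts to be tested.

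RNA was sequenced from 8 libraries of E14TG2a, a mouse embryonic stem (ES) cell line of strain 129/Ola, kept for 48 h in medium with 15% serum and LIF, the cytokine that holds ES cells undifferentiated. WT was unmodified E14TG2a (2 biological replicates). QKO was a quadruple knockout, tagged TCF7(-/-), TCF7L1(-/-), TCF7L2(-/-) and LEF1(-/-), so that every full-length TCF/LEF factor, the DNA-binding partners of beta-catenin in Wnt signalling, was lacking. QT7 and QT7L1 were QKO lines to which the design text says a single copy of TCF7 or of TCF7L1 had been restored. The genotype tags give the opposite: libraries titled QT7 carry the tag TCF7L1(+/-), with the other factors (-/-), and libraries titled QT7L1 carry TCF7(+/-), with the other factors (-/-). The titles are followed here. QKO, QT7 and QT7L1 were each represented by clones A and B, 1 library per clone. The p-values below weigh differences between groups against the spread between libraries within groups, estimated from all 8 libraries. With only clones A and B for each line, traits of the clones cannot be fully told apart from effects of the genotype. The labels name no treatment with low oxygen.

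In normal oxygen the EGLN enzymes (also called PHD1 to PHD3 in another order) use O2, iron and 2-oxoglutarate to hydroxylate prolines of the HIF alpha subunits, and the VHL ubiquitin ligase binds the hydroxylated protein and sends it to the proteasome. When oxygen falls, HIF alpha protein accumulates, pairs with ARNT and switches on genes of glycolysis, glucose uptake and mitophagy, among them Egln1 and Egln3 themselves, which makes their transcripts well known HIF targets. HIF alpha is governed mostly at the protein level, which RNA counts do not measure. P4HA1 and P4HA2 are related oxygenases of the endoplasmic reticulum that hydroxylate procollagen, and their genes are known HIF targets too.

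HIF binds the core letters ACGTG or GCGTG. The promoters of the 4 genes that were lowest in QKO relative to WT are shown so that these letters can be seen, with that of Egln2, an EGLN gene whose counts did not pass the test, beside them. Each sequence is the run of 250 bases before the RefSeq start on the gene's own strand (RefSeq, GRCm38.p6), with the core letters or their reverse complement in capitals.
Egln1 (chr8:124949255-124949504, minus strand): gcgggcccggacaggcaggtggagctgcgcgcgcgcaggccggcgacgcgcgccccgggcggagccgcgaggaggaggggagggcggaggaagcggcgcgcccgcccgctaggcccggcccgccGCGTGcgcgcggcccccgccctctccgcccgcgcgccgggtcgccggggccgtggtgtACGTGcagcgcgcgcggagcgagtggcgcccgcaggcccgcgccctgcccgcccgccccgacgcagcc
Egln3 (chr12:54203875-54204124, minus strand): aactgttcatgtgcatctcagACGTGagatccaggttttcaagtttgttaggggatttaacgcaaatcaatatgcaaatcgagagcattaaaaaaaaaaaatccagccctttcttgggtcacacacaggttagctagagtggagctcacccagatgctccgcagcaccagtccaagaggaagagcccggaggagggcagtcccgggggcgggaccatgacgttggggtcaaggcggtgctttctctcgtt
P4ha1 (chr10:59323046-59323295, plus strand): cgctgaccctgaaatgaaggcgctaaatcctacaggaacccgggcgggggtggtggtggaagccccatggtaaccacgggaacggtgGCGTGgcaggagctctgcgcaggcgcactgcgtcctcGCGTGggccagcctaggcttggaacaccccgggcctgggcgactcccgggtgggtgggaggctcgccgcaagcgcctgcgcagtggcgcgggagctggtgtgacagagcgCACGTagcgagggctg
P4ha2 (chr11:54100674-54100923, plus strand): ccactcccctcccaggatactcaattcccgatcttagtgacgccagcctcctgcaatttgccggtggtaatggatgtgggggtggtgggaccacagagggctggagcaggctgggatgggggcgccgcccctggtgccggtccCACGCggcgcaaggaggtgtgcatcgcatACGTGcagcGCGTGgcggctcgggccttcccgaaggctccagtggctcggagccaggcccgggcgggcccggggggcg
Egln2 (chr7:27166803-27167052, minus strand): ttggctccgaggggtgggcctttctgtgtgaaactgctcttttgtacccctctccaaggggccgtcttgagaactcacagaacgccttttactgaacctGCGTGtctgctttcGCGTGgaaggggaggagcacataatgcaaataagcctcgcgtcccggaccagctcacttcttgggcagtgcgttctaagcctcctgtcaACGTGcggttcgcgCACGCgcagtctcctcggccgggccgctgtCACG

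A window of 300 bases (250 before to 50 after the start) was found for 9 of the 10 genes, 10 windows in all because Egln2 has an upstream and a downstream start. The search covered both strands. ACGTG was present in 6 of the 10 windows, against 19.6% of all 32851 windows in the RefSeq table, and GCGTG in 6, against 32.4%. At least 1 of the 2 motifs was in 8 windows, against 43.8%. In Egln1 the motifs began at -68 (ACGTG) and -126 (GCGTG) from the start, and in Egln3 ACGTG began at -229. P4ha2 held ACGTG at -78 and again at 10, inside the transcript and so beyond the printed run. Its motif at -78 and that of Egln1 at -68 lie in an identical run of 13 letters, TACGTGCAGCGCG. A run of 13 letters was also the longest shared by Egln3 and Vhl (GCCGCGGCGGTGG, on opposite strands), and no other pair of windows shared a longer one. The upstream window of Egln2, whose counts did not pass the test, held 3 matches of each motif, and its downstream window held GCGTG at -116. The upstream window and that of Hif1a held CACGTG (7.15% of all windows), in which ACGTG is read on both strands. The CACGTG of Egln2 spans the start, so the printed run ends within it. The windows of Vhl and Hif1an held neither motif. CTTTGA, a form of the core letters bound by TCF/LEF factors, was in 0 of the 10 windows on either strand, against 16.0% of all windows. At that share few of 10 windows would hold it, and no other form of the core was searched. The shares of all windows were not matched for base composition. G and C made up 49.3% (downstream window of Egln2) to 86.0% (Egln1) of the letters in the 10 windows. The counts are therefore no measure of enrichment or depletion, and the letters describe these windows only.

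Libraries held 31573536 to 43362627 counts. Levels are in CPM, a gene's counts per 1e+06 counts of the library, scaled by TMM, a correction for library composition. Levels of different genes are compared only per kilobase of exon. Tests are edgeR quasi-likelihood F tests across the 16515 genes, 2-sided, with Benjamini-Hochberg adjustment, and a gene is called under an adjusted p of 0.05. The targeted genes were still counted: Tcf7 stood at 59.6 and 61.9 CPM in the WT libraries, 7.97 and 19.7 in the QKO libraries, 16.6 and 20.9 in the QT7 libraries, and 10.1 and 12.7 in the QT7L1 libraries. Tcf7l1 stood at 73.6 and 68.8 CPM in the WT libraries, 38.3 and 39.1 in the QKO libraries, 27.4 and 22.4 in the QT7 libraries, and 36.9 and 27.5 in the QT7L1 libraries. Neither was called between QT7 and QT7L1 (edgeR adjusted p = 0.509 and 0.42). Against QKO, Tcf7 gave a log2 fold change of 0.44 in QT7 (adjusted p = 0.41) and -0.29 in QT7L1 (adjusted p = 0.594). Tcf7l1 was called lower in QT7 than in QKO (-0.64, adjusted p = 0.0137) and gave -0.26 in QT7L1 (adjusted p = 0.217). Neither gene was called above QKO in either line, so these counts do not settle the conflict between titles and tags. Tcf7l2 ranged from 4.72 to 8.14 CPM and Lef1 from 0.212 to 6.57 CPM over the 8 libraries. The 8 ES cell markers summed to 5230 to 6630 CPM in the 8 libraries, with none at 0. In QKO against WT 3 of the 8 rose (Nanog, Sall4 and Pou5f1), 1 fell (Sox2) and 4 did not pass the test. Over all genes tested, 11.7% were called higher and 14.7% lower. Nanog, a pluripotency factor, measured 308 and 288 CPM in the WT libraries, 624 and 566 in the QKO libraries, 583 and 504 in the QT7 libraries, and 441 and 445 in the QT7L1 libraries (QKO against WT 1.00 ± 0.10, edgeR adjusted p = 0.000615). It was also called above WT in QT7 (0.87, adjusted p = 0.0032) and QT7L1 (0.57, adjusted p = 0.0347). The part of these differences in those of the 10 genes was not tested.

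Egln1 and Egln3 fell in QKO, and P4ha1 and P4ha2 fell with them, while Epas1 rose. These 5 were the genes of the 10 that were called against WT, 1 higher and 4 lower. Over all genes tested, 11.7% were called higher and 14.7% lower in QKO. The median log2 fold change of the 10 genes was -0.18, against -0.01 for all genes tested. In QT7 and QT7L1 the same 4 genes stood at levels that overlapped those of WT.

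**Figure D1:**
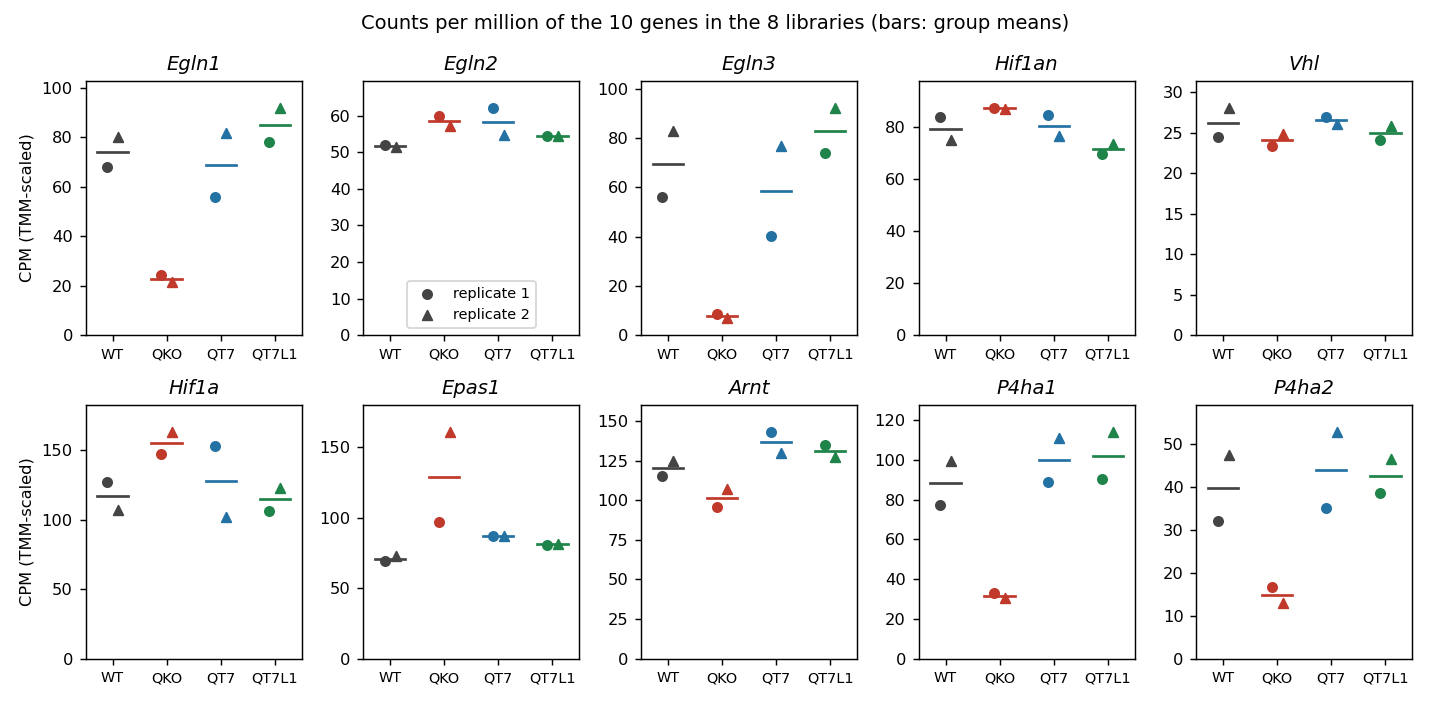
TMM-scaled CPM (vertical axes, each from 0) of the 10 genes in WT, QKO, QT7 and QT7L1; circles and triangles are replicates 1 and 2 and bars are group means. Egln1, Egln3, P4ha1 and P4ha2 show both QKO libraries below the other 6, Epas1 shows them above, and Egln2 and Vhl vary little.

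Among the prolyl hydroxylases, Egln3 (chr12:54178981-54203860, minus strand, GRCm38), a paralog whose transcript is strongly induced by HIF in many cells, had the largest fold of the 10 genes. It measured 56.2 and 82.8 CPM in the WT libraries, 8.5 and 7.15 in the QKO libraries, 40.2 and 77.0 in the QT7 libraries, and 73.9 and 92.2 in the QT7L1 libraries. Both QKO libraries lay far below the other 6, whose groups overlapped one another. The level in QKO was 8.89-fold below WT (log2 fold change -3.15 ± 0.35 (SE), edgeR adjusted p = 0.0019, n = 2 libraries a group). QT7 exceeded QKO by 2.91 ± 0.35 (adjusted p = 0.0023) and QT7L1 by 3.41 ± 0.36 (adjusted p = 0.00132) on the same log2 scale.

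Egln1 (chr8:124908587-124949324, minus strand), which encodes PHD2, the enzyme that does most of the HIF alpha hydroxylation in normal oxygen, measured 67.9 and 80.1 CPM in the WT libraries, 24.2 and 21.6 in the QKO libraries, 55.9 and 81.8 in the QT7 libraries, and 78.2 and 91.8 in the QT7L1 libraries. Again both QKO libraries were below the other 6. QKO was 3.23-fold below WT (log2 fold change -1.69 ± 0.18, edgeR adjusted p = 0.000805). QT7 was 1.59 ± 0.18 above QKO (adjusted p = 0.00104) and QT7L1 1.89 ± 0.18 above it (adjusted p = 0.000653).

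Egln2 (chr7:27158658-27166802, minus strand), which encodes PHD1, measured 51.9 and 51.3 CPM in the WT libraries, 59.9 and 57.1 in the QKO libraries, 62.0 and 54.7 in the QT7 libraries, and 54.4 and 54.3 in the QT7L1 libraries. Its QKO libraries were slightly above those of WT and overlapped those of QT7. QKO against WT gave a log2 fold change of 0.18 ± 0.10 (edgeR adjusted p = 0.224), and QT7 and QT7L1 against QKO gave 0.00 ± 0.10 and -0.11 ± 0.10 (adjusted p = 0.982 and 0.473).

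The make-up of the EGLN transcripts therefore differed between groups. Per kilobase of exon, Egln2 supplied 31.7 and 25.6% of the EGLN total in WT and 68.3 and 70.1% in the QKO libraries, 41.9 and 27.4% in the QT7 libraries, and 28.2 and 24.4% in the QT7L1 libraries. Egln3 supplied 36.1 and 43.4% in the WT libraries, 10.2 and 9.24% in the QKO libraries, 28.6 and 40.6% in the QT7 libraries, and 40.3 and 43.5% in the QT7L1 libraries. Egln1 supplied 32.3 and 31.1% in the WT libraries and 21.5 and 20.6% in the QKO libraries, and between 29.5 and 32.1% in the other 4 libraries. So the 2 QKO libraries were the ones in which Egln2 made up most of the sum, with QT7 replicate 1 next. The summed level of the 3 genes was 58.5 and 71.7 CPM per kilobase in the WT libraries, 31.3 and 29.1 in the QKO libraries, 52.8 and 71.2 in the QT7 libraries, and 69.0 and 79.6 in the QT7L1 libraries. These shares and sums are a description, with no test.

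**Figure D2:**
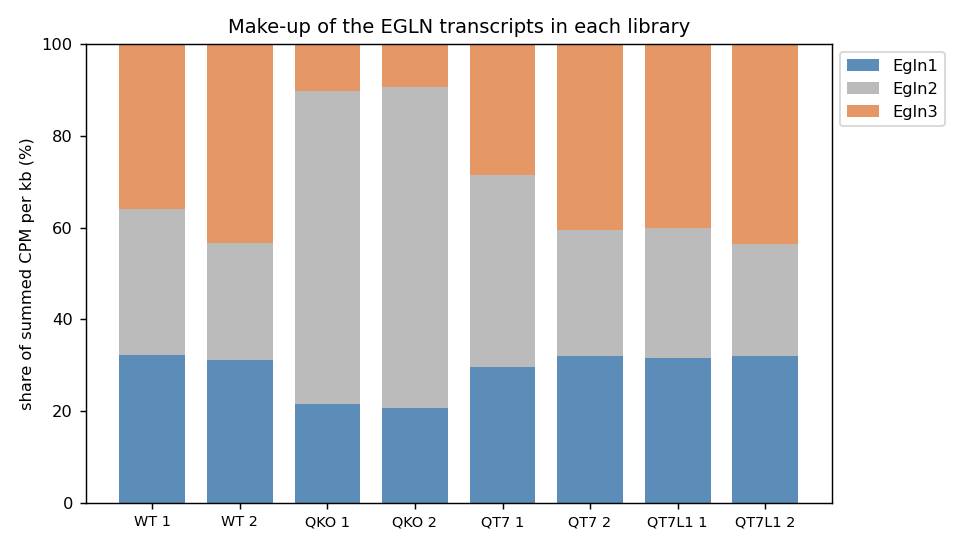
Stacked bars give the share (%, vertical axis) of Egln1, Egln2 and Egln3 in their summed CPM per kilobase of exon in each of the 8 libraries. Egln2 takes 68.3 and 70.1% in the 2 QKO libraries and 24.4 to 41.9% in the other 6.

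Hif1an (chr19:44562850-44576274, plus strand) encodes FIH, the asparaginyl hydroxylase that blocks coactivator binding to HIF alpha. It measured 83.5 and 74.9 CPM in the WT libraries, 87.0 and 86.9 in the QKO libraries, 84.4 and 76.2 in the QT7 libraries, and 69.5 and 73.3 in the QT7L1 libraries. Its QKO libraries were the highest of the 8 by a small margin. The log2 fold change was 0.14 ± 0.10 for QKO against WT (edgeR adjusted p = 0.355), -0.11 ± 0.10 for QT7 against QKO (adjusted p = 0.438) and -0.28 ± 0.10 for QT7L1 against QKO (adjusted p = 0.0602). The last was called under 4 of 13 alternative settings, with adjusted p down to 0.0364.

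Vhl (chr6:113623959-113631633, plus strand), whose protein recognises hydroxylated HIF alpha, measured 24.4 and 28 CPM in the WT libraries, 23.3 and 24.8 in the QKO libraries, 26.9 and 26.1 in the QT7 libraries, and 24.1 and 25.8 in the QT7L1 libraries. The groups overlapped, apart from QT7, which lay just above QKO and QT7L1. QKO against WT gave -0.13 ± 0.13 on the log2 scale (edgeR adjusted p = 0.502). Over all genes tested, 11.7% were called higher and 14.7% lower in QKO. Of the 6 listed partners of VHL in the ligase and its activating neddylation step, 0 fell, 3 were not called and 3 rose. The 3 were Cul2, the scaffold (log2 fold change 0.50 ± 0.10, adjusted p = 0.00584), Eloc, an elongin subunit that bridges VHL to CUL2 (0.51 ± 0.12, adjusted p = 0.0125), and Ube2m, the NEDD8-conjugating enzyme (0.53 ± 0.13, adjusted p = 0.0153). Cul2 measured 135 and 123 CPM in the WT libraries and 188 and 176 in the QKO libraries. Eloc and Ube2m were also called lower in QT7 and in QT7L1 than in QKO, whereas Cul2 was not (-0.25 and -0.26, adjusted p = 0.0845 and 0.0661). Partners such as elongins and NEDD8 serve many other ubiquitin ligases as well.

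The HIF subunits gave smaller fold changes than Egln1 and Egln3. Hif1a (chr12:73901375-73947530, plus strand), the broadly expressed oxygen-regulated subunit, measured 127 and 107 CPM in the WT libraries, 147 and 163 in the QKO libraries, 153 and 102 in the QT7 libraries, and 106 and 123 in the QT7L1 libraries. Both QKO libraries were above WT and QT7L1, and QT7 replicate 1 lay between the QKO libraries. QKO against WT gave 0.40 ± 0.18 (edgeR adjusted p = 0.127), QT7 against QKO -0.29 ± 0.18 (adjusted p = 0.269) and QT7L1 against QKO -0.44 ± 0.18 (adjusted p = 0.0955). Without QT7 replicate 1, QKO against WT was called (0.40, adjusted p = 0.0205), QT7 against QKO was called (-0.60, adjusted p = 0.0132) and so was QT7L1 against QKO (-0.43, adjusted p = 0.0131). Without QT7 replicate 2, QT7 against QKO was -0.02 (adjusted p = 0.924). QKO against WT was called without QT7 replicate 2 as well (adjusted p = 0.0201). On the opposite strand lies the antisense gene Gm15283, which shares 330 exon bases with Hif1a. Its counts were 11 and 18 in the WT libraries, 0 and 0 in the QKO libraries, 11 and 26 in the QT7 libraries, and 17 and 14 in the QT7L1 libraries. Hif1a had 3500 to 5985 counts. Without the strand setting of the counting, reads over the shared bases cannot be told apart.

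Epas1 (chr17:86753700-86833410, plus strand), which encodes HIF-2 alpha, measured 69.4 and 72.9 CPM in the WT libraries, 97.2 and 161 in the QKO libraries, 87.4 and 86.9 in the QT7 libraries, and 80.8 and 81.8 in the QT7L1 libraries. Both QKO libraries were the highest of the 8, but they differed from each other more than the libraries of any other group did. QKO was 1.82-fold above WT (log2 fold change 0.86 ± 0.19, edgeR adjusted p = 0.0127). QT7 against QKO gave -0.57 ± 0.19 and was not called (adjusted p = 0.0555), and QT7L1 against QKO gave -0.67 ± 0.19 and was called (adjusted p = 0.0296). QKO replicate 2 carried much of this: without it the fold change against WT was 0.44 (adjusted p = 0.0515) and that of QT7L1 against QKO was -0.26 (adjusted p = 0.187). The call against WT was also lost without WT replicate 1 (adjusted p = 0.065) or WT replicate 2 (adjusted p = 0.0794). The call of QT7L1 was lost without QT7L1 replicate 1 (adjusted p = 0.128) or QT7L1 replicate 2 (adjusted p = 0.125). QT7 against QKO was -0.16 without QKO replicate 2 (adjusted p = 0.422), and it was called without QKO replicate 1 (-0.88, adjusted p = 0.00706) and in the authors' deposited table (adjusted p = 0.0117).

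Arnt (chr3:95434388-95497240, plus strand), the partner that both alpha subunits need to bind DNA, measured 115 and 125 CPM in the WT libraries, 95.5 and 107 in the QKO libraries, 143 and 130 in the QT7 libraries, and 135 and 127 in the QT7L1 libraries. The QKO libraries were the lowest, and QT7 and QT7L1 lay above WT. QKO against WT was not called (log2 fold change -0.24 ± 0.10, edgeR adjusted p = 0.103). QT7 was above QKO by 0.43 ± 0.10 (adjusted p = 0.0123) and QT7L1 by 0.37 ± 0.10 (adjusted p = 0.0213). Without QKO replicate 1 these became 0.36 (adjusted p = 0.0891) and 0.30 (adjusted p = 0.131). The QT7L1 call was also lost without QKO replicate 2 (adjusted p = 0.0533), QT7L1 replicate 1 (adjusted p = 0.105) or QT7L1 replicate 2 (adjusted p = 0.0685). Among 12 other HIF subunits, coactivators and regulators, 0 rose and 1 fell in QKO, where 11.7% and 14.7% of all genes did. The other 11 did not pass the test. The gene that fell was Hif3a, which encodes another alpha subunit with inhibitory splice forms (log2 fold change -1.26 ± 0.30, adjusted p = 0.0175). Hif3a measured 24.6 and 36.6 CPM in the WT libraries, 10.5 and 15.0 in the QKO libraries, 14.2 and 25.0 in the QT7 libraries, and 33.5 and 29.8 in the QT7L1 libraries. In QT7L1 it was above QKO by 1.31 ± 0.30 (adjusted p = 0.0134), and in QT7 the difference was 0.62 ± 0.30 (adjusted p = 0.159).

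The collagen prolyl hydroxylase subunits fell in QKO as Egln1 did. P4ha1 (chr10:59323296-59373304, plus strand), the catalytic subunit most cells use, measured 77.1 and 99.2 CPM in the WT libraries, 33.2 and 30.4 in the QKO libraries, 89.0 and 111 in the QT7 libraries, and 90.3 and 114 in the QT7L1 libraries. QKO was 2.77-fold below WT (log2 fold change -1.47 ± 0.17, edgeR adjusted p = 0.00087). QT7 exceeded QKO by 1.65 ± 0.17 (adjusted p = 0.000769) and QT7L1 by 1.68 ± 0.17 (adjusted p = 0.000653).

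P4ha2 (chr11:54100095-54131665, plus strand), the alternative catalytic subunit, measured 32.1 and 47.5 CPM in the WT libraries, 16.7 and 13.1 in the QKO libraries, 35.1 and 52.8 in the QT7 libraries, and 38.7 and 46.6 in the QT7L1 libraries. As for P4ha1, both QKO libraries were below the other 6. QKO was 2.68-fold below WT (log2 fold change -1.42 ± 0.25, edgeR adjusted p = 0.00507). QT7 and QT7L1 exceeded QKO by 1.56 ± 0.25 (adjusted p = 0.00333) and 1.52 ± 0.25 (adjusted p = 0.00324). The 2 catalytic subunits kept their proportion: per kilobase of exon, P4ha1 was 3.64 and 3.17 times P4ha2 in WT, 3.02 and 3.51 times in QKO, and 3.18 to 3.84 times in the other 4 libraries.

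Of 12 listed hydroxylases and chaperones of collagen, 0 rose and 2 fell in QKO against WT, where 11.7% and 14.7% of all genes did. The median log2 fold change of the 12 was -0.01, equal to that of all genes. Plod2, a lysyl hydroxylase that is also a known HIF target, fell (-1.16 ± 0.23, edgeR adjusted p = 0.00901), from 90.9 and 117 CPM in the WT libraries to 43.3 and 50 in the QKO libraries, and stood at 119 and 140 in the QT7 libraries and 78.2 and 127 in the QT7L1 libraries. P3h2, a prolyl 3-hydroxylase, also fell (-1.27 ± 0.42, adjusted p = 0.0487), but from only 1.16 and 1.02 CPM to 0.310 and 0.582, and it stayed at 0.274 to 0.363 in QT7 and QT7L1. P4hb, the shared beta subunit of the collagen enzyme, measured 491 and 475 CPM in the WT libraries and 537 and 607 in the QKO libraries (0.24 ± 0.09, adjusted p = 0.0706).

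Collagen genes are typical of fibroblasts, which can be present as feeder cells, and these markers varied between libraries. Of the 15 fibroblast markers 11 were tested, and in QKO against WT 2 of these rose (Thy1 and Vim), 1 fell (Fn1) and 8 did not pass the test. Over all genes tested, 11.7% were called higher and 14.7% lower, so these few calls are no measure of fibroblast content. Their summed level was 1250 to 1350 CPM in WT, 1030 to 1090 in QKO, 1320 to 1350 in QT7 and 1320 to 1620 in QT7L1, most of it Fn1 and Vim, which ES cells also express. Lum was at 0 in all 8 libraries and Dcn at 0 in 5 of them. Col1a1 measured 38.6 and 18.2 CPM in the WT libraries, 51.0 and 5.82 in the QKO libraries, 2.58 and 13.2 in the QT7 libraries, and 3.03 and 6.85 in the QT7L1 libraries. It was higher in replicate 1 than in replicate 2 of WT and QKO, and lower in that of QT7 and QT7L1. Primitive endoderm markers summed to 45.8 to 117 CPM in WT and 47.2 to 66.4 in QKO, and to 45.1 to 93.2 in QT7 and QT7L1. By edgeR 0 of 8 were called in QKO against WT, beside the same shares of all genes. The part of other cell types in the changes of these genes was not tested further. In such bulk samples, fewer cells of a type and less RNA per cell cannot be told apart.

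**Figure D3:**
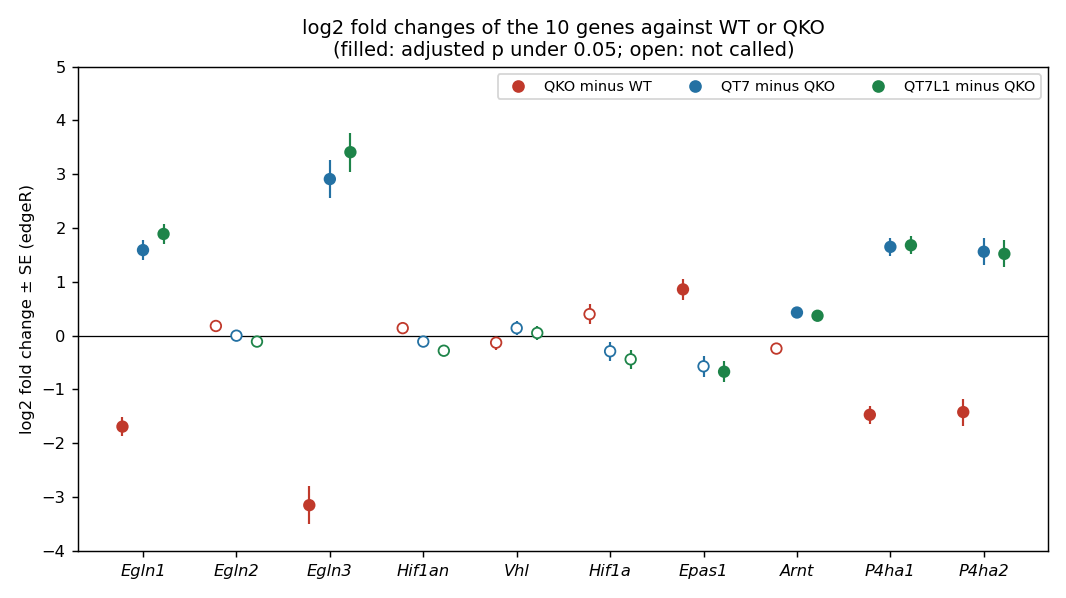
log2 fold changes (vertical axis) of the 10 genes for QKO minus WT, QT7 minus QKO and QT7L1 minus QKO, with bars of 1 SE from edgeR; filled points have an adjusted p under 0.05. Egln1, Egln3, P4ha1 and P4ha2 are filled below 0 for QKO minus WT and filled above 0 for both lines against QKO, and Egln2, Hif1an, Vhl and Hif1a are open throughout.

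Against QKO, QT7 had 5 of the 10 genes called higher (Egln1, Egln3, Arnt, P4ha1 and P4ha2) and 0 lower, where 14.8% and 12.1% of all genes were called higher and lower. The median of the 10 was 0.29, against 0.05 over all genes. QT7L1 had these 5 genes called higher and Epas1 lower, where the shares of all genes were 15.9% and 13.9%, and the median of the 10 was 0.21, against 0.02. Both comparisons and QKO against WT use the same QKO libraries. Over the 8 libraries, both QKO libraries lay below the other 6 for 5 of the 10 genes and above them for 2 (Epas1 and Hif1an). Over all genes tested these shares were 21.5% below and 19.6% above.

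Set against WT, QT7 and QT7L1 had 0 of the 10 genes called by edgeR, with 0 at an unadjusted p under 0.05 and 0 called by DESeq2. Over all genes, 4.62% were called in QT7 against WT and, for QT7L1 against WT, 0.745%. A missed threshold does not show equal levels: Egln3 in QT7 against WT gave -0.25 ± 0.31 and in QT7L1 against WT 0.26 ± 0.31 on the log2 scale. Between QT7 and QT7L1, edgeR and DESeq2 also called 0 of the 10, with 0 at an unadjusted p under 0.05, and edgeR called 1 gene in all (0.00606% of those tested). Egln3 gave -0.50 ± 0.32 (edgeR adjusted p = 0.581) and Egln1 -0.30 ± 0.18 (adjusted p = 0.543), with overlapping libraries. QT7 replicate 1 was lower than QT7 replicate 2 in Egln1, Egln3, P4ha1 and P4ha2 and higher in Hif1a. In WT and QT7L1, too, replicate 1 was lower than replicate 2 for Egln1, Egln3, P4ha1 and P4ha2. Without QT7 replicate 2, Egln1 (-0.60, adjusted p = 0.0343) and Egln3 (-1.04, adjusted p = 0.034) were called lower in QT7 than in QT7L1.

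Ordered by level per kilobase of exon, Egln3 led in WT (26.1 ± 7.05 CPM per kilobase (SD, n = 2)), followed by P4ha1 (21.4 ± 3.79), Egln1 (20.6 ± 2.4), Hif1a (19.9 ± 2.43) and Egln2 (18.4 ± 0.136). Each of these overlapped the next over the 2 libraries. Arnt (14.9 ± 0.893), Epas1 (12.7 ± 0.445), Hif1an (12.0 ± 0.919), Vhl (8.76 ± 0.849) and P4ha2 (6.38 ± 1.74) came below, and of these neighbours Epas1 and Hif1an overlapped. In QKO the order was different, with Hif1a (26.3 ± 1.91), Epas1 (23.1 ± 8.11) and Egln2 (20.9 ± 0.696) at the top, overlapping in turn. Hif1an (13.2 ± 0.00795) and Arnt (12.6 ± 0.993) overlapped in the middle. Vhl (8.03 ± 0.355) and P4ha1 (7.73 ± 0.490) overlapped below them, and Egln1 (6.37 ± 0.525), Egln3 (2.94 ± 0.359) and P4ha2 (2.39 ± 0.403) came last, each apart from the next. In QT7 the first 5 again overlapped in turn (P4ha1 24.3 ± 3.75, Egln3 22 ± 9.76, Hif1a 21.6 ± 6.09, Egln2 20.8 ± 1.87 and Egln1 19.2 ± 5.09), and so did Egln1 and Arnt (17.0 ± 1.07). The order in QT7L1 had Egln3 first at 31.2 ± 4.86, apart from P4ha1 (24.8 ± 3.99) and Egln1 (23.7 ± 2.69), which overlapped. In both lines Epas1, Hif1an, Vhl and P4ha2 came last in that order, each apart from the next. Hif1a was 1.74 and 1.39 times Epas1 per kilobase in WT and 1.44 and 0.959 times in QKO, so that QKO replicate 2 was the library of the 8 in which Epas1 exceeded Hif1a.

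Egln1 and Egln3 varied together, also among the libraries other than QKO. Over the 8 libraries their log2 CPM correlated with a Pearson r of 1.00, and over the 6 libraries without QKO with r = 0.99. P4ha1 and P4ha2 gave r = 0.99 and 0.93, and Egln1 with P4ha1 gave 0.98 and 0.71. Hif1a ran the other way to Egln3, with r = -0.81 over 8 libraries and -0.79 over 6. These are descriptions over few points that share a library, its scaling and its group, and the 2 QKO libraries stand apart from the rest.

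Among 10350 other genes whose mean log2 CPM reached 2 or more, the 5 most like Egln3 over the 8 libraries were Ddit4 (r = 0.998), Nsmf (0.997), Bnip3 (0.995), Serinc5 (0.994) and Stard5 (0.993). The 5 most like Egln1 were Ddit4 (0.998), Nsmf (0.997), Bnip3 (0.996), Pgm1 (0.994) and Stard5 (0.992). Ddit4, an inhibitor of mTORC1, measured 136 and 190 CPM in the WT libraries, 30.3 and 23.2 in the QKO libraries, 98.7 and 189 in the QT7 libraries, and 192 and 223 in the QT7L1 libraries. Bnip3, a mitophagy receptor, measured 121 and 141 CPM in the WT libraries, 13.9 and 9.67 in the QKO libraries, 77.8 and 149 in the QT7 libraries, and 118 and 172 in the QT7L1 libraries. As for Egln3, QKO was lowest in both and QT7 replicate 1 was lowest of the other 6. Both genes were picked for their correlation over these same libraries, so the shared pattern follows from the choice. Ddit4 and Bnip3 are also on the list of HIF target genes below.

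Of 22 listed HIF target genes outside the 10, 0 rose and 16 fell in QKO against WT, and 6 did not pass the test. Over all genes tested, 11.7% were called higher and 14.7% lower. The list was chosen with earlier results of these data known, so its counts are no independent evidence. The median log2 fold change of the 22 was -1.06, against -0.01 over all genes. The smallest adjusted p-values were those of Bhlhe40, a transcriptional repressor (-2.93 ± 0.23, edgeR adjusted p = 0.000519), the glucose transporter Slc2a3 (-1.15 ± 0.11, adjusted p = 0.000598), the glycolytic regulator Pfkfb3 (-1.09 ± 0.13, adjusted p = 0.000997) and the glycolytic enzyme Pgk1 (-1.32 ± 0.17, adjusted p = 0.0013). Slc2a3 measured 1500 and 1860 CPM in the WT libraries, 766 and 753 in the QKO libraries, 1620 and 1550 in the QT7 libraries, and 1580 and 1770 in the QT7L1 libraries. Pgk1 measured 835 and 907 CPM in the WT libraries, 332 and 364 in the QKO libraries, 650 and 891 in the QT7 libraries, and 850 and 1100 in the QT7L1 libraries. The 6 that did not pass the test were Pdk1, Bnip3l, Car9, Kdm3a, Mxi1 and Pfkfb4, with log2 fold changes from -0.34 (Bnip3l) to 0.60 (Kdm3a). Of the 22, the number called was 10 without WT replicate 2 and between 11 and 18 without any other library.

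Most of the listed targets were higher in both lines than in QKO. In QT7 16 were called higher and 0 lower than in QKO (median 0.96), where 14.8% and 12.1% of all genes were. In QT7L1 18 were called higher and 1 lower than in QKO (median 1.17), where 15.9% and 13.9% of all genes were. The 1 that was lower was Kdm3a, a histone demethylase (-0.88 ± 0.24, edgeR adjusted p = 0.0276). Against WT, 1 of the 22 was called in QT7, the hexokinase Hk2 (-0.46 ± 0.10, edgeR adjusted p = 0.0376), where 4.62% of all genes were. For QT7L1 the number was 0, where 0.745% of all genes were called. Both counts are near those shares. Hk2 measured 580 and 709 CPM in the WT libraries, 434 and 441 in the QKO libraries, 457 and 478 in the QT7 libraries, and 547 and 537 in the QT7L1 libraries, so that its QT7 libraries stayed close to those of QKO.

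**Figure D4:**
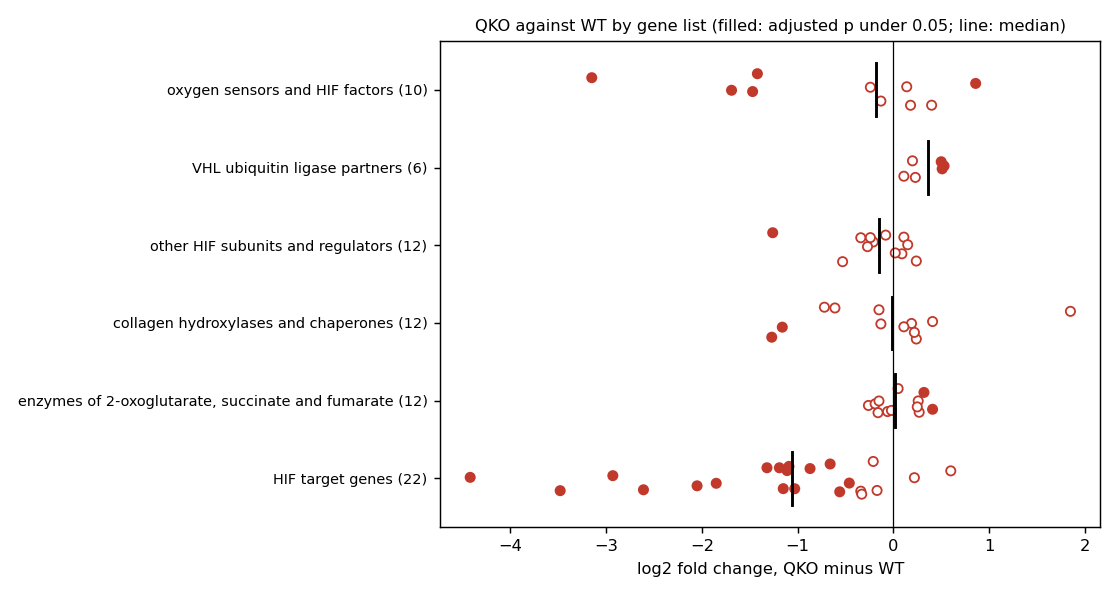
Each point is a gene's log2 fold change for QKO minus WT (horizontal axis), in rows for the 10 genes and 5 lists of related genes (number tested in brackets; vertical scatter is only for legibility); filled points have an adjusted p under 0.05 and the black line is the median. The HIF targets have 16 of 22 filled, all below 0, and the other 4 lists have medians between -0.15 and 0.36. Over all genes tested, 14.7% were called lower, and the lists were chosen with earlier results of these data known.

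Also listed were enzymes that supply 2-oxoglutarate, the cosubstrate of all the hydroxylases above, or that turn over succinate and fumarate, which inhibit them. Of these 12, 2 rose and 0 fell in QKO against WT, where 11.7% and 14.7% of all genes did. Their median log2 fold change was 0.02. Sdha, a subunit of succinate dehydrogenase, rose by 0.41 ± 0.09 on the log2 scale (edgeR adjusted p = 0.0082), from 248 and 244 CPM in the WT libraries to 333 and 320 in the QKO libraries. Idh3b, a subunit of mitochondrial isocitrate dehydrogenase, rose by 0.32 ± 0.10 (adjusted p = 0.0444). Against QKO, 2 of the 12 were called higher in QT7 (Idh1 and Idh2) and 1 lower (Sdha, -0.29, adjusted p = 0.0306). In QT7L1 3 were called higher (Idh1, Idh2 and Sdhc) and 0 lower. Over all genes, 14.8% were called higher and 12.1% lower in QT7, and 15.9% and 13.9% in QT7L1. For Idh2 the values were 0.60 for QT7 and 0.67 for QT7L1 (adjusted p = 0.0232 and 0.0143). Idh1 and Idh2, which also make 2-oxoglutarate, gave -0.26 and -0.16 in QKO against WT (adjusted p = 0.137 and 0.499).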

How the data were processed

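RNA-seq counts of 8 libraries were used. Per the submitters' processing notes, bcl2fastq 1.8.4, STAR 2.4.0f1, HTSeq and the build mm10 (GRCm38) were used. The strand setting, the treatment of multiply mapped reads and the HTSeq version were not given in the sources used here. Per the labels' protocols, a stranded TruSeq mRNA kit was used on 250 ng of total RNA. The deposited files hold whole-number counts per Ensembl gene. The authors' comparison tables hold a mean normalised signal, log2 fold changes, a test score and p-values with adjusted p-values, and the deposited column GeneID gave the symbols. The notes list DESeq2 as version 2.1.8.3.

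Counts were analysed with edgeR 4.0.16 in R 4.3.3: filterByExpr kept 16515 of 47729 genes, libraries were TMM-scaled (factors 0.9549 to 1.028), and all 8 libraries entered 1 quasi-likelihood fit (1 coefficient per group, 4 residual degrees of freedom). All 6 group contrasts were tested, with Benjamini-Hochberg adjustment over all genes. Log2 CPM used a prior count of 2. SE is the size of the log2 fold change over the square root of F. Exon lengths and coordinates came from GENCODE M21. The fit was tested on simulated data. Replicates of a group correlated at r = 0.9815 to 0.9912 (log2 CPM) and differed beyond counting noise, with a chi-square of 17.4 to 55.7 for each degree of freedom. Alternatives were RLE scaling, no filter, a replicate block, the 4 libraries compared alone, DESeq2 1.42.0 and each library left out. The leave-one-out counts of HIF targets were added after seeing the data. The genes and lists were chosen with earlier results of these data known, and the test of HIF targets is no independent evidence. All 10 genes are named; from each list, up to 4 genes with the smallest adjusted p in QKO against WT, or a whole count of called genes, are named, and for Egln1 and Egln3 the 5 most correlated genes. Genes named outside this rule, after their values were seen, are P4hb, Idh1, Idh2, Sdhc, Kdm3a, Hk2, Bnip3l and the other HIF targets not called, the fibroblast markers Col1a1, Lum and Dcn, and Gm15283.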

Additional observations from a re-analysis of the deposited data

How the results depend on the processing

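Each of the 60 fold changes (10 genes, 6 comparisons) was recomputed under 13 alternative settings. Of the 16 that were called, 0 changed direction, and Egln1, Egln3, P4ha1 and P4ha2 stayed called in QKO against WT, QT7 against QKO and QT7L1 against QKO under all 13, with P4ha2 in QKO against WT closest to the threshold (adjusted p = 0.05, rounded up, without QKO replicate 2). The calls of Epas1, Arnt, Hif1a and Hif1an, and those of Egln1 and Egln3 between QT7 and QT7L1, depended on the setting (12 values lost a call, 22 gained one), and the cause was not tested. With no filter Hif1a was called in QKO against WT (adjusted p = 0.00569) and Epas1 in QT7 against QKO (adjusted p = 0.000124). Over all genes tested, replicate numbers did not pair the libraries (correlations of replicate differences between groups from -0.205 to 0.164). Egln1, Egln3, P4ha1 and P4ha2 were nevertheless lower in replicate 1 than in replicate 2 of WT, QT7 and QT7L1, and higher in that of QKO. In the fit with a replicate block Epas1 was called in QT7 against QKO (-0.54, edgeR adjusted p = 0.0447). The genes called between QT7 and QT7L1 then numbered 2.

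Leaving out 1 library at a time, all genes called numbered 1310 to 5493 for QKO against WT, 1478 to 4270 for QT7 against QKO, 1773 to 5982 for QT7L1 against QKO, 50 to 1914 for QT7 against WT, 0 to 517 for QT7L1 against WT and 0 to 1396 for QT7 against QT7L1, and of the 10 genes 0 to 2 were called in the last. The totals were lowest without WT replicate 2, QKO replicate 2, QKO replicate 2, WT replicate 1 and QT7L1 replicate 2, in that order for the first 5 comparisons. For QT7 against WT, 763 genes called became 2203 with no filter, 122 with the 4 libraries alone and 1287 with DESeq2. For QT7L1 against WT, 123 became 1248, 655 and 575 under the same settings, and for QT7 against QT7L1, 1 became 1030, 19 and 235. With no filter 1 of the 10 genes, Egln3, was called between QT7 and QT7L1 (-0.49, adjusted p = 0.0111).

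Of the fold changes that were not called, 14 changed sign in some setting. Egln2 in QT7 against QKO was 0.01 with no filter and -0.09 to 0.08 without 1 library. Without 1 library, QT7 against WT ranged from -0.40 to 0.15 (Egln1), -0.79 to 0.15 (Egln3), -0.20 to 0.38 (Hif1a), -0.08 to 0.12 (Vhl), -0.06 to 0.10 (Hif1an) and -0.18 to 0.45 (P4ha2). QT7L1 against WT ranged from -0.16 to 0.09 (Hif1a), -0.17 to 0.03 (Vhl) and -0.16 to 0.41 (P4ha2). QT7 against QT7L1 ranged from -0.17 to 0.42 (Hif1a), 0.00 to 0.12 (Arnt), -0.20 to 0.15 (P4ha1) and -0.28 to 0.31 (P4ha2).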

Other observations

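The antisense gene Gm15283 (chr12:73843039-73949814, minus strand, GRCm38), which overlaps Hif1a, had 0 counts in both QKO libraries and 11 to 26 in the other 6. Its mean level was 0.376 ± 0.0451 CPM in WT, 0.439 ± 0.224 in QT7 and 0.471 ± 0.0626 in QT7L1 (SD, n = 2). Against a floor of 3 counts per QKO library (0.0881 CPM), these are at least 4.27-fold, 4.99-fold and 5.34-fold higher. The edgeR adjusted p-values against QKO were 0.00466 (WT), 0.00337 (QT7) and 0.00289 (QT7L1), and the QKO libraries were lowest in 2 of 2. The gene was chosen after its values were seen, its counts are few, and the strand setting of the counting is not given in the sources used here. Reads of Hif1a and of Gm15283 over the 330 shared exon bases can therefore not be told apart. Hif1a itself was higher, not lower, in both QKO libraries than in WT.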
